A study of Homo sapiens with 16 samples.

Results

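SAA1, SAA2, PI3, SLPI, LCN2, C3, CFB and C15orf48 are 8 acute-phase and epithelial defence genes, found by name among the 39576 gene names in the deposited tables. SAA1, SAA2, PI3 and C15orf48 were chosen by a measured value, their rise over DMSO with 7F8 at 48 h. Their values in every comparison that uses the 48 h libraries of 7F8 or DMSO are therefore a description, with no test. SLPI, LCN2, C3 and CFB were tested in all comparisons, and all 8 genes at 4 h and between 5G6 and 6D7 at 48 h. The spread used in each test is drawn from all 16 libraries, including those used to choose SAA1, SAA2, PI3 and C15orf48. Tests of these genes are therefore not independent of that choice. All 8 genes were named with earlier results of these data known.

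The cells were A549, a human lung adenocarcinoma line, and every library, controls included, came from cells made to overexpress the exosome protein CD63 fused to the luciferase Nluc. They received DMSO (the solvent control) or the compound 5G6, 6D7 or 7F8, each of which the labels call an inhibitor, for 4 h or 48 h. The labels give 4 µM for each of the 4 treatments, DMSO included. Each of the 8 groups had 2 libraries of polyA RNA, called biological replicates, and whether the line is 1 clone was not given in the sources used here. By its title the series concerns how exosome release is controlled through AMPK and SREBP, an energy sensor and a family of lipid-synthesis regulators. Levels are given as TPM, a relative transcript abundance that takes account of gene length.

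The acute-phase response is the change in secreted proteins that follows injury or infection. The liver is its main source, and airway epithelium makes part of the same set. Serum amyloid A proteins are lipoprotein-bound acute-phase proteins, PI3 and SLPI block neutrophil proteases, LCN2 binds bacterial iron carriers, and C3 and CFB form the core of the alternative complement pathway. IL-1, IL-6 and TNF signalling through NF-kB, C/EBP and STAT3 factors is the textbook route to these genes.

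The libraries held 6.10 to 8.86 aligned gigabases and 13013 to 14568 genes at TPM of at least 1. KRT8, KRT18 and AKR1B10, which are high in A549, were never below 1147, 486.7 and 909 TPM, while the epithelial marker EPCAM was low, at 0.254 to 8.33 TPM. The leukocyte gene PTPRC did not exceed 0.0719 TPM, the macrophage receptor CSF1R did not exceed 0.137, and hepatocyte ALB did not exceed 0.462. Other markers were not as low. The immune marker CD14 was at 1.49 to 8.00 TPM, and CD79A reached 2.38. The fibroblast marker COL1A1 was at 2.27 to 14.4 TPM, and the hepatocyte marker CYP2E1 reached 1.14. The summed TPM of the 8 immune markers was 54.97 to 256 in the compound libraries of 48 h, against 22.7 to 66.2 in all others, and CD68, a lysosomal protein, made up most of it at 19.4 to 252. The summed TPM of the 8 A549 markers was 3652 to 4945 with 7F8 at 48 h and 5192 to 12303 in the other groups. The part of these shifts in the values below was not tested. The mitochondrial transfer RNA gene TRNC took up to 28.6% of TPM but was listed at 0 in both 6D7 libraries of 48 h, which raises every other TPM there, so the 6D7 changes are also given after median-of-ratios scaling, which centres the typical gene. Unscaled, the median log2 fold change of all 15285 tested genes against DMSO at 48 h was -0.07 for 5G6, 0.29 for 6D7 and -0.21 for 7F8.

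The serum amyloid A genes SAA1 and SAA2 were near the bottom of the measured range in DMSO and highest with 7F8 at 48 h. SAA1 (chromosome 11, GRCh38, 18266225 to 18269977, plus strand, 4 exons in GENCODE 29) and SAA2 (18238233 to 18248674, minus strand, 4 exons) lie 17550 bases apart. Their coding sequences differ at 11 of 366 bases, and 37.2% of the 100-base windows of the SAA1 transcript occur unchanged in SAA2, so reads can be split between the copies. Coding bases 205 to 324, counted from the start codon, are shown from the GENCODE 29 transcripts because 10 of the 11 differences fall there. Capitals mark the bases that differ between them.

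SAA1: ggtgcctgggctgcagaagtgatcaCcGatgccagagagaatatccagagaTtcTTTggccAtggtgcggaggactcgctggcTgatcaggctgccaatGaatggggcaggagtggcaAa
SAA2: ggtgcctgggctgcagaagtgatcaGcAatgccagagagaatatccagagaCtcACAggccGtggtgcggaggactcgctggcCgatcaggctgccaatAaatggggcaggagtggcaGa

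At 48 h the TPM of SAA1 in replicates 1 and 2 was 9.75 and 2.21 with DMSO, 53.8 and 15.1 with 5G6, 29.3 and 16.2 with 6D7, and 268 and 28.99 with 7F8. Every compound library lay above both DMSO libraries. The 7F8 libraries were far apart from each other, and the lower of them lay under the higher library of 5G6 and of 6D7. The log2 fold change against DMSO was 2.34 ± 0.95 (SE, n = 2 against 2) for 5G6, 1.96 ± 0.95 for 6D7 (1.62 after median-of-ratios scaling) and 3.94 ± 0.95 for 7F8. The value for 7F8 was 2.35 without its replicate 1 and 5.52 without its replicate 2. Adding 1 to TPM before taking log2, as done for all fold changes here, makes the change of a low gene look smaller.

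SAA2 was 3.85 and 1.42 TPM with DMSO at 48 h, 23.0 and 8.06 with 5G6, 14.4 and 7.24 with 6D7, and 136 and 20.9 with 7F8. It kept the order of SAA1, and its log2 fold changes were 2.11, 1.72 and 4.00 (SE 0.72 each), that of 6D7 becoming 1.40 after median-of-ratios scaling. With single libraries left out the change with 7F8 ran from 2.68 to 5.32. The ratio of SAA1 to SAA2 was 1.39 to 2.34 in the 6 compound libraries of 48 h and 0.853 to 4.15 in the other 10, where both genes were low. With the copies added together, DMSO held 13.6 and 3.62 TPM and 7F8 held 404 and 49.9 TPM at 48 h. The read-through transcript SAA2-SAA4, which shares exons with SAA2, reached 8.03 TPM and SAA4, the constitutive family member, 1.33 TPM.

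At 4 h neither copy passed the test with any compound. SAA1 was 2.28 and 4.05 TPM with DMSO, 7.62 and 1.29 with 5G6, 4.39 and 4.01 with 6D7, and 4.04 and 3.49 with 7F8. SAA2 was 1.62 and 0.976 TPM with DMSO and 2.01 and 2.17 with 7F8, a separation of the libraries with a log2 fold change of 0.44 ± 0.72 (SE, n = 2 against 2). That change did not pass the test (adjusted p = 1, limma with Benjamini-Hochberg adjustment over all tested genes).

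**Figure D1:**
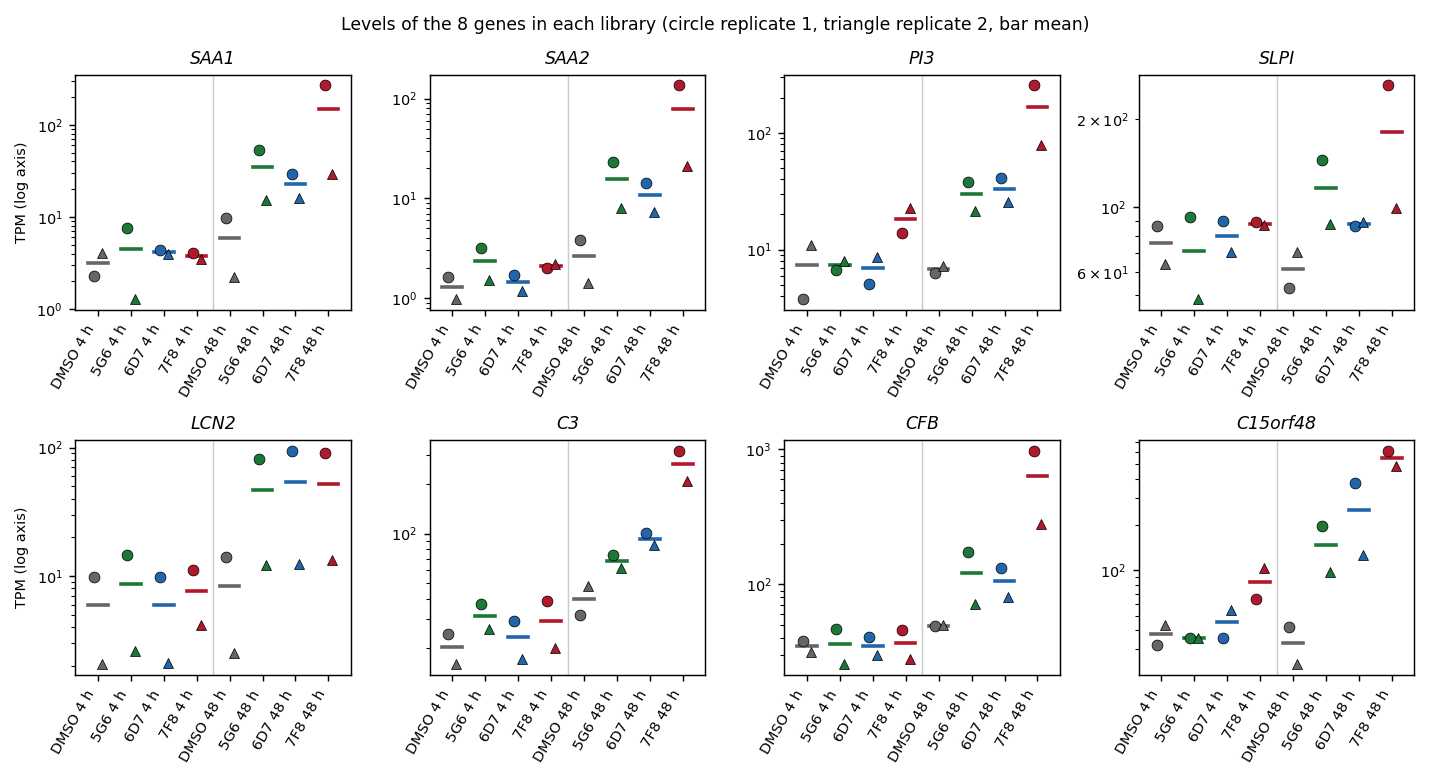
TPM of each of the 8 genes (log axis) in the 8 groups, with a circle for replicate 1, a triangle for replicate 2 and a bar for the mean. In every panel except LCN2 the compound libraries of 48 h lie above both DMSO libraries of 48 h, and the 7F8 libraries of SAA1 (268 and 28.99) are the farthest apart of these.

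The protease inhibitors PI3 and SLPI belong to the same WAP domain family on chromosome 20, and PI3 was the lower of them in every DMSO library. PI3 (45174902 to 45176544, plus strand, 3 exons) encodes elafin, an inhibitor of neutrophil elastase and proteinase 3, and SLPI (45252239 to 45254564, minus strand, 4 exons) encodes the secretory leukocyte protease inhibitor. The genes lie 75694 bases apart.

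PI3 at 48 h was 6.37 and 7.29 TPM with DMSO, 38.1 and 21.4 with 5G6, 40.9 and 25.5 with 6D7, and 256 and 79.4 with 7F8. All 6 compound libraries lay above DMSO, and both 7F8 libraries lay above the other compounds. The log2 fold changes were 1.92, 2.09 and 4.20 (SE 0.55 each), that of 6D7 becoming 1.76 after median-of-ratios scaling. The last ran from 3.36 to 5.04 with single libraries left out.

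PI3 was also the gene of the 8 with the largest difference at 4 h. It was 3.78 and 11.1 TPM with DMSO, 6.67 and 7.98 with 5G6, 5.10 and 8.71 with 6D7, and 13.9 and 22.6 with 7F8. Both 7F8 libraries lay above the other 6 libraries of 4 h. The log2 fold change of 1.30 ± 0.55 (SE, n = 2 against 2; 95% interval 0.10 to 2.50) did not pass the test (adjusted p = 0.989, limma with Benjamini-Hochberg adjustment), and the DMSO libraries themselves differed by a ratio of 0.341.

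SLPI was already expressed, at 52.9 and 70.6 TPM with DMSO at 48 h. It was 145 and 87.9 with 5G6, 86.2 and 89.2 with 6D7, and 261 and 99.4 with 7F8. All compound libraries lay above DMSO, and 1 library of 7F8 was far above the other. The log2 fold changes of 0.88, 0.51 and 1.38 (SE 0.42 each, n = 2 against 2) did not pass the test, with adjusted p of 0.296, 0.452 and 0.0614 (limma, Benjamini-Hochberg). The change with 7F8 was 0.69 without replicate 1 of 7F8 and 2.08 without its replicate 2. The latter had an adjusted p of 0.016 by limma, in which the lone 7F8 library is assumed to vary like the other groups. After median-of-ratios scaling the change with 6D7 was 0.18.

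LCN2, the siderophore-binding protein lipocalin 2 (chromosome 9, 128149453 to 128153453, plus strand), had the largest median difference between the replicates of the 8 genes. Replicate 1 was the higher library in all 8 groups, by a ratio of 2.68 to 7.66. Such a pattern, replicate 1 higher in all 8 groups, was seen in 3.48% of tested genes, and 0.15% had a larger median difference between replicates than LCN2. SAA1, SAA2, C3 and CFB shared it in part, with replicate 1 the higher in 7 of 8 groups. For SAA1 the ratio reached 9.26, and 0.654% of tested genes had a larger median difference. The labels do not say what a replicate number marks.

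At 48 h LCN2 was 14.2 and 2.52 TPM with DMSO, 81.6 and 12.3 with 5G6, 94.9 and 12.4 with 6D7, and 90.5 and 13.3 with 7F8. In these unscaled values the 3 compounds were nearly the same, library for library, and replicate 2 of each lay below replicate 1 of DMSO. The log2 fold changes were 2.18, 2.29 and 2.31, each with an SE of 1.29 (n = 2 against 2). After median-of-ratios scaling they were 2.25, 1.96 and 2.54 for 5G6, 6D7 and 7F8, so the compounds were less alike. None of the unscaled changes passed the test, with adjusted p of 0.413, 0.264 and 0.299 (limma, Benjamini-Hochberg). This fit leaves the difference between replicates in the SE. Each compound library lay above the DMSO library of the same replicate number. The calls change in a fit with a replicate block, which is given with the dependence on processing below.

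At 4 h LCN2 was 9.88 and 2.05 TPM with DMSO, 14.7 and 2.63 with 5G6, 9.81 and 2.11 with 6D7, and 11.2 and 4.17 with 7F8. The compound libraries overlapped with those of DMSO, and the largest of the 3 log2 fold changes was 0.46 ± 1.29 (SE).

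The LCN2 promoter is shown because this gene is a textbook target of NF-kB and C/EBP factors and its RefSeq window lies in part outside any exon. The window covers chr9:128149265-128149440 on the plus strand (RefSeq, GRCh38.p14), and capitals mark matches to GGGA, any 4 bases and CC, an NF-kB-like pattern that overlaps itself on the 2 strands here, and to TTGCNNAA, a C/EBP-like pattern. The patterns were chosen after the sequences were seen.

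LCN2: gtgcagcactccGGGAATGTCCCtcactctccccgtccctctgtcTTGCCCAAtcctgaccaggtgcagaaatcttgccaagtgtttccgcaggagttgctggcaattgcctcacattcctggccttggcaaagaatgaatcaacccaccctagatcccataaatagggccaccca

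Of 35116 promoter windows cut to 176 bases, 17.2% held the NF-kB-like pattern and 5.96% held TTGCNNAA on either strand. These cuts have the length of the LCN2 stretch but not its exact placement, and exon bases were not left out of them. A match is a description of the letters and not a binding site. The 169-base window before C15orf48 (listed by RefSeq as COXFA4L3) held neither pattern, which says only that these letters are not in that window. A TATA-like pattern, TATANAA, was also searched and was found in neither the LCN2 nor the C15orf48 window. No window was used for SAA1, SAA2, PI3, SLPI and C3, nor for CFB, whose window had 0 bases outside exons.

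**Figure D2:**
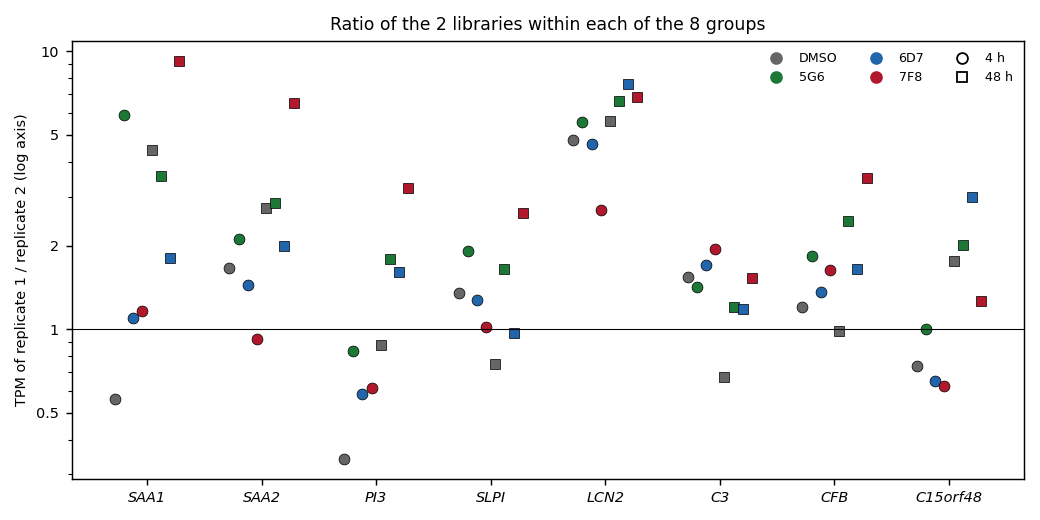
Ratio of replicate 1 to replicate 2 in TPM (log axis) within each of the 8 groups for each gene, coloured by treatment, with circles for 4 h and squares for 48 h. All 8 ratios of LCN2 lie between 2.68 and 7.66. Ratios lie above 1 in 7 groups for SAA1, SAA2, C3 and CFB, 6 for SLPI, 5 for C15orf48 and 3 for PI3.

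The complement genes C3 and CFB were the members called higher against DMSO in the fit without a replicate block. C3 (chromosome 19, 6677835 to 6720682, minus strand, 41 exons) encodes the central complement protein, and CFB (chromosome 6, 31945944 to 31952084, plus strand, 18 exons) encodes the protease that joins cleaved C3 in the alternative pathway convertase. CFB is also listed on 6 alternative haplotypes, all at 0.

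C3 at 48 h was 32.1 and 47.8 TPM with DMSO, 73.8 and 61.6 with 5G6, 100.4 and 84.6 with 6D7, and 320.4 and 209.95 with 7F8. The 4 groups did not overlap with one another. With 7F8 the log2 fold change was 2.70 ± 0.37 (SE, n = 2 against 2; adjusted p = 0.00404, limma with Benjamini-Hochberg adjustment), a 6.48-fold rise. The change with 6D7 was 1.21 ± 0.37 (adjusted p = 0.0513 in the same limma fit) and became 0.88 (adjusted p = 0.234, limma) after median-of-ratios scaling. The change with 5G6 was 0.77 ± 0.37 (adjusted p = 0.299 in the same limma fit as the unscaled values).

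CFB at 48 h was 48.8 and 49.6 TPM with DMSO, 174 and 70.9 with 5G6, 131 and 79.98 with 6D7, and 982 and 279 with 7F8. The DMSO libraries were close together, each compound lay above them, and the lower 7F8 library exceeded all libraries of the other treatments. The rise with 7F8 was 10.5-fold, with a log2 fold change of 3.39 ± 0.55 (SE, n = 2 against 2; adjusted p = 0.00771, limma with Benjamini-Hochberg adjustment). The changes of 1.16 with 5G6 and 1.04 with 6D7 (SE 0.55; 0.71 for 6D7 after median-of-ratios scaling) did not pass the test, with adjusted p of 0.296 and 0.234 in the same limma fit.

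As these are bulk samples, more cells making a transcript and more transcript per cell cannot be told apart. The calls of C3 and CFB depended on single libraries. Without replicate 1 of DMSO at 48 h their adjusted p in the same limma fit was 0.0665 and 0.0767, and without replicate 1 of 7F8 at 48 h it was 0.0592 and 0.0786, with log2 fold changes of 2.39 and 2.48 in the latter case. Fitted on the 48 h libraries alone, CFB had an adjusted p of 0.0523 (limma).

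Of the 4 members tested at 48 h, 0 were called higher with 5G6, 0 with 6D7 and 2 with 7F8, where 1.87%, 10.9% and 2.08% of all tested genes were called higher. At an unadjusted p under 0.05 by limma, 0, 1 and 3 of them were higher, where 18.1%, 29.3% and 24.9% of all tested genes differed in either direction. Both compound libraries exceeded both DMSO libraries for 3 of these 4 genes with each compound, LCN2 being the exception each time, where 19.4%, 45.2% and 15.1% of tested genes did so. Nothing is read from these shares for the picked genes, which all met the same condition. The 4 tested genes were also named with earlier results of these data known, so their counts beside these shares are a description.

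At 4 h C3 was 24.6 and 15.97 TPM with DMSO, 37.0 and 26.1 with 5G6, 29.5 and 17.3 with 6D7, and 38.7 and 19.97 with 7F8. The 5G6 libraries alone lay above both DMSO libraries, and the log2 fold change of 0.62 ± 0.37 (SE) had an adjusted p of 1 by limma. CFB at 4 h was 38.1 and 31.6 TPM with DMSO and 25.5 to 46.6 over the 6 compound libraries. Its log2 fold changes at 4 h lay within 0.05 of 0. Between the DMSO groups themselves, C3 was higher at 48 h than at 4 h by 0.95 on the log2 scale, which did not pass the test (adjusted p = 0.999, limma with Benjamini-Hochberg adjustment; 0% of tested genes were called).

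C15orf48 had the highest starting level of the picked genes and, with C3, the closest agreement of the 7F8 libraries. It lies on chromosome 15 (45430529 to 45433449, plus strand, 4 exons) and encodes a small mitochondrial protein that can take the place of NDUFA4, a subunit of respiratory complex IV. Its untranslated region holds the hairpin of miR-147b, which is why the mature sequence is given here with its seed, bases 2 to 8, in capitals (RefSeq, GRCh38.p14, chr15:45433098-45433118, plus strand).

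hsa-miR-147b-3p: gUGUGCGGaaaugcuucugcu

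At 48 h C15orf48 was 42.1 and 23.8 TPM with DMSO, 195 and 97.5 with 5G6, 374 and 125 with 6D7, and 616 and 488 with 7F8. The 7F8 libraries lay above all others and the other compounds above DMSO. The log2 fold changes were 2.09, 2.74 and 4.07 (SE 0.48 each), and 2.18, 2.40 and 4.33 after median-of-ratios scaling. Unscaled, that of 6D7 ran from 1.95 to 3.52 with single libraries left out. PolyA libraries do not measure a mature miRNA, and the separate row for MIR147B never exceeded 0.00474 TPM.

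At 4 h C15orf48 was 32.1 and 43.6 TPM with DMSO, 35.5 and 35.4 with 5G6, 35.7 and 54.8 with 6D7, and 63.97 and 103 with 7F8. Both 7F8 libraries lay above the other 6. The log2 fold change of 1.09 ± 0.48 (SE, n = 2 against 2; 95% interval 0.04 to 2.15) did not pass the test (adjusted p = 0.989, limma with Benjamini-Hochberg adjustment).

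Its partner NDUFA4 was 112 and 107 TPM with DMSO at 48 h, 102 and 99.8 with 5G6, 141 and 145 with 6D7, and 78.3 and 94.1 with 7F8. The 7F8 libraries were below and the 6D7 libraries above DMSO, but the log2 fold changes of -0.35 and 0.38 did not pass the test (adjusted p of 0.179 and 0.114, limma with Benjamini-Hochberg adjustment) and became -0.09 and 0.05 after median-of-ratios scaling. Between compounds, 6D7 exceeded 7F8 by 0.73 (adjusted p = 0.0149, limma), which became 0.14 (adjusted p = 0.829, limma) after that scaling.

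Over the 8 genes at 4 h, limma called 0 with any compound, where it called 0.0196% of all tested genes higher with 5G6, 0% with 6D7 and 0% with 7F8. At an unadjusted p under 0.05 the count was 0, 0 and 2, the last being PI3 and C15orf48, where 3.91%, 1.18% and 4.86% of all tested genes differed in either direction. With 7F8 both libraries exceeded both DMSO libraries for 4 of 8 genes, SAA2, PI3, SLPI and C15orf48, where 9.98% of tested genes did so. With 5G6 this held for C3 alone (26.9% of tested genes) and with 6D7 for none (16.1%). The median log2 fold change of the 8 genes was 0.13 with 5G6, 0.09 with 6D7 and 0.45 with 7F8, beside 0.13, 0.04 and -0.10 for all tested genes.

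SLPI at 4 h was 86.5 and 64.1 TPM with DMSO and 88.8 and 87.3 with 7F8, a log2 fold change of 0.24 ± 0.42 (SE, n = 2 against 2). At 4 h 7F8 also exceeded 5G6 in both libraries for PI3 and C15orf48 (4.87% of tested genes) and 6D7 for SAA2, PI3 and C15orf48 (7.34%). PI3 was lower by 1.17 with 5G6 and by 1.28 with 6D7 than with 7F8 on the log2 scale, and C15orf48 by 1.17 and 0.86. None of the 8 genes passed the test, the lowest adjusted p being 0.394 against 5G6 and 0.778 against 6D7 (limma, Benjamini-Hochberg), where 0.0131% and 0% of all tested genes were called.

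**Figure D3:**
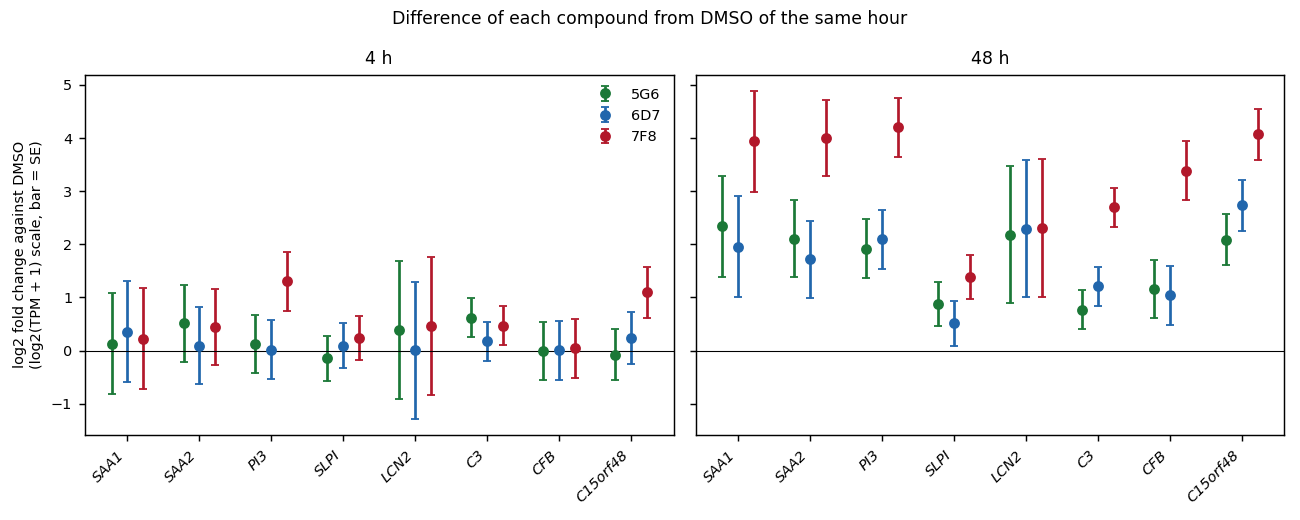
Log2 fold change against DMSO of the same hour for each gene and compound, with bars for the SE of the limma fit. At 4 h the largest values are those of PI3 (1.30) and C15orf48 (1.09) with 7F8, while at 48 h all 24 values are above 0 and LCN2 has the widest bars.

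The change in C3 and CFB with 7F8 was larger at 48 h than at 4 h by 2.23 ± 0.52 and 3.34 ± 0.78 on the log2 scale (SE). Neither passed the test of that difference (adjusted p = 0.366 for both, limma with Benjamini-Hochberg adjustment), where 0% of all tested genes were called higher in it. The unadjusted p was 0.00111 and 0.0011. For 5G6 and 6D7 limma called 0 of the 4 tested genes in this difference, where 0% and 0.0262% of all tested genes were called higher. The difference for CFB was 2.44 without replicate 1 of 7F8 at 48 h and 4.25 without its replicate 2. The latter had an adjusted p of 0.0472 by limma, with 1 library standing for 7F8 at 48 h. The comparisons with DMSO share their control libraries within an hour.

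The compounds were set side by side at the same labelled concentration and hour, each comparison adjusted over all tested genes, and 3 pairs were compared at each hour. At 48 h no difference between 5G6 and 6D7 passed the test in the 8 genes by limma, the lowest adjusted p being 0.44 for C15orf48, where 0.0196% of all tested genes were called. Both 6D7 libraries exceeded both 5G6 libraries for C3 alone, where 47.8% of tested genes did so. The intervals were wide. The log2 difference of 5G6 from 6D7 was 0.38 for SAA1 (95% interval -1.69 to 2.46), 0.39 for SAA2 (-1.18 to 1.96), 0.36 for SLPI (-0.55 to 1.27) and 0.11 for CFB (-1.09 to 1.32).

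For C3 it was -0.45 (-1.25 to 0.36) and for C15orf48 -0.65 (-1.71 to 0.41). PI3 at -0.17 (-1.37 to 1.03) and LCN2 at -0.11 (-2.93 to 2.70) turned to 0.24 and 0.30 after median-of-ratios scaling, which moves the median of all genes between these compounds from -0.36 to 0.01. The sign of the difference for SAA1, SAA2, PI3, LCN2, CFB and C15orf48 also turned when single libraries were left out.

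Both 7F8 libraries of 48 h exceeded both 6D7 libraries for SLPI, C3 and CFB among the 4 tested genes, where 2.35% of tested genes did so. C3 was 1.48 lower and CFB 2.34 lower with 6D7 than with 7F8 on the log2 scale. Written as 6D7 minus 7F8, C3 was -1.48 (95% interval -2.29 to -0.68, adjusted p = 0.0246) and CFB was -2.34 (-3.55 to -1.14, adjusted p = 0.0213) by limma with Benjamini-Hochberg adjustment, where 0.203% of tested genes were called lower. After median-of-ratios scaling the differences grew to -2.07 and -2.93 but were no longer called, with adjusted p of 0.0554 and 0.0785 by limma. Nor were they called without replicate 1 of 6D7, replicate 2 of 6D7 or replicate 1 of 7F8, where adjusted p ran from 0.0571 to 0.162.

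SLPI was -0.87 (-1.78 to 0.04, adjusted p = 0.149) and LCN2 was -0.01 (-2.83 to 2.80) in the same limma comparison. SLPI was -0.18 without replicate 1 of 7F8 and -1.56 without its replicate 2, the latter with an adjusted p of 0.0496 by limma from a lone 7F8 library. Against 5G6, the same 4 genes gave no call where 0.0262% of tested genes were called lower. C3 was -1.93 (-2.73 to -1.12, adjusted p = 0.0540), CFB -2.23 (-3.43 to -1.02, adjusted p = 0.146), SLPI -0.51 (-1.42 to 0.40) and LCN2 -0.13 (-2.94 to 2.69) by limma. Both 7F8 libraries exceeded both 5G6 libraries for C3 and CFB, where 8.57% of tested genes did so.

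For the picked genes the differences are a description. 5G6 minus 7F8 was -1.60 for SAA1, -1.89 for SAA2, -2.28 for PI3 and -1.98 for C15orf48, and 6D7 minus 7F8 was -1.98, -2.28, -2.11 and -1.33. Against 7F8, LCN2 had the smallest differences of the 8 genes and the widest intervals.

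**Figure D4:**
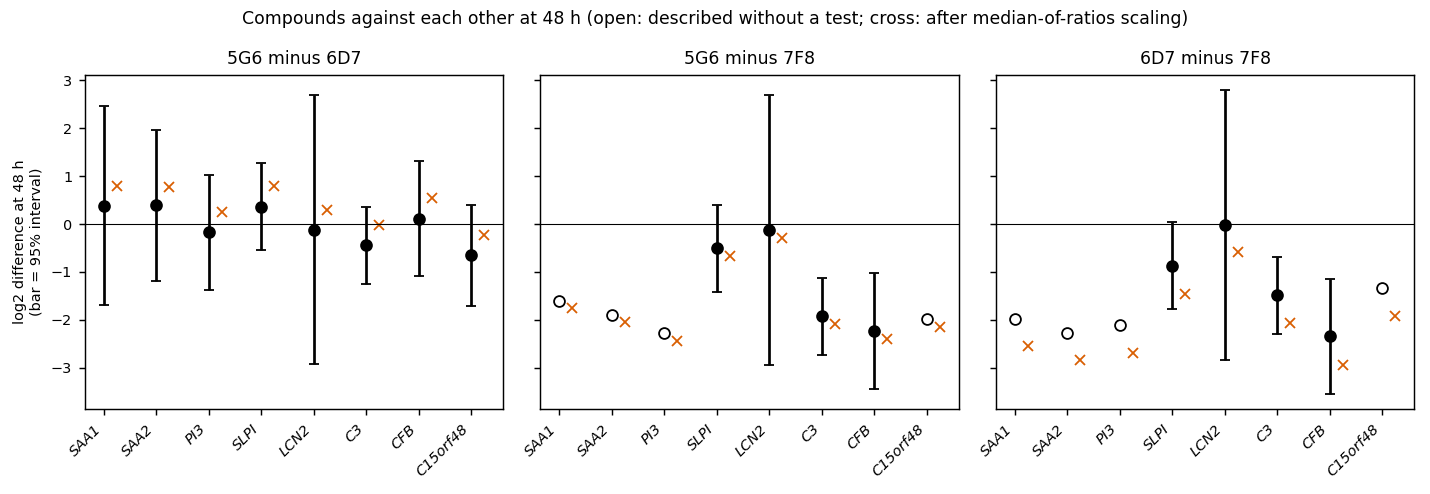
Log2 difference between compounds at 48 h for each gene, with 95% intervals (limma) for tested values, open points for values described without a test, and crosses for values after median-of-ratios scaling. The intervals of C3 and CFB lie below 0 in both comparisons with 7F8, and every interval between 5G6 and 6D7 includes 0.

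Beside the 8 genes, 5 lists of 112 other genes were followed, of which 71 were tested. At 4 h limma called 0 of the 71 with any compound. At 48 h it called 4 higher and 0 lower with 5G6, 15 higher and 0 lower with 6D7, and 13 higher and 1 lower with 7F8. After median-of-ratios scaling these counts were 5 and 0, 5 and 0, and 16 and 1, so most of the calls with 6D7 were lost. Of all tested genes, 1.87%, 10.9% and 2.08% were called higher and 1.51%, 1.52% and 6.4% lower, and after the scaling 2.47%, 3.09% and 3.69% higher and 1.46%, 3.23% and 3.82% lower.

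Of the other acute-phase proteins, 10 of 19 were tested, and 1, CP, was called with each compound. CP encodes ceruloplasmin, the copper-carrying ferroxidase of plasma. It was 19.8 and 61.5 TPM with DMSO at 48 h, 148 and 242 with 5G6, 94.97 and 224 with 6D7, and 157 and 110 with 7F8. All compound libraries lay above DMSO, with log2 fold changes of 2.40, 2.03 (1.69 after median-of-ratios scaling) and 1.87 (adjusted p of 0.0241, 0.0208 and 0.0336, limma with Benjamini-Hochberg adjustment).

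The fibrinogen gene FGB went the other way without passing the test, at -1.30, -1.97 and -2.31. The acute-phase list's median log2 fold change was -0.03 with 5G6, -0.08 with 6D7 and 0.19 with 7F8. With median-of-ratios scaling these became 0.02, -0.15 and 0.36.

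Of the other complement genes, 17 of 28 were tested, and 0 were called with 5G6. CD55, which speeds the decay of the C3 convertase on the cell surface, was called higher with 6D7 (1.90, adjusted p = 0.0159; 1.56 after median-of-ratios scaling) and with 7F8 (2.26, adjusted p = 0.0115) by limma. Its TPM at 48 h was 36.8 and 64.5 with DMSO, 254 and 134 with 6D7, and 275 and 204 with 7F8. C5AR1, a receptor for the C5 fragment, was called higher with 6D7 (1.58, and 1.29 after that scaling), and the protease genes C1S (1.15) and C1RL (1.47) with 7F8.

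C5, which encodes the next protein after C3 in the cascade, was the 1 list gene called lower, with 7F8. It was 20.3 and 31.5 TPM with DMSO at 48 h and 1.77 and 3.35 with 7F8. The 7F8 libraries lay well below, with a log2 fold change of -2.92 ± 0.67 (SE; adjusted p = 0.0224, limma with Benjamini-Hochberg adjustment). CFD, the protease that cleaves CFB, was 92.5 and 92.7 TPM with DMSO and 488 and 136 with 7F8, and its change of 1.47 did not pass the test (adjusted p = 0.134, limma). The list's median log2 fold change was 0.50 with 5G6, 0.53 with 6D7 and 0.38 with 7F8. With median-of-ratios scaling these became 0.57, 0.23 and 0.64.

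Of the other epithelial antimicrobial and antiprotease genes, 10 of 26 were tested. SPINK1, a trypsin inhibitor, was listed at 0 and 0.128 TPM with DMSO at 48 h, and was 23.3 and 4.41 with 5G6, 20.0 and 1.83 with 6D7, and 0.306 and 0 with 7F8. It was called higher with 5G6 (3.43, adjusted p = 0.0375) and 6D7 (2.86, adjusted p = 0.0345) by limma, the latter not after median-of-ratios scaling. S100A8, a subunit of calprotectin, was called higher with 7F8 (2.12) from levels of 0 and 0.293 TPM with DMSO to 5.36 and 2.82.

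SPINK1 stayed near 0 with 7F8, and 6D7 exceeded 7F8 by 2.76 (adjusted p = 0.0361, limma; 0.255 after median-of-ratios scaling). CCL20, a chemokine with antimicrobial activity, had large changes that did not pass the test, at 2.09, 3.23 and 3.75. The list's median log2 fold change was 1.27, 0.94 and 0.82, and 1.31, 0.64 and 0.96 after median-of-ratios scaling.

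All 24 inducing factors and receptors were tested, and 1 was called higher with 5G6, 8 with 6D7 (1 after median-of-ratios scaling) and 8 with 7F8. IL6 was called with every compound. It was 10.8 and 9.65 TPM with DMSO at 48 h, 41.1 and 34.3 with 5G6, 61.9 and 35.03 with 6D7, and 180 and 66.3 with 7F8. Its log2 fold changes of 1.78, 2.09 and 3.30 (adjusted p of 0.0375, 0.00981 and 0.00267, limma with Benjamini-Hochberg adjustment) became 1.87, 1.76 and 3.55 after median-of-ratios scaling.

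With 6D7 the other called genes included NFKB2 (1.59), RELA (1.14), STAT3 (0.73) and CEBPB (0.70), none of them called after median-of-ratios scaling. With 7F8 the other called genes were IL1B (2.998), TNF (2.43), TNFAIP3 (2.20), RELB (1.88), OSMR (1.39), CEBPD (1.35) and CEBPB (0.75). These genes called with 7F8 encode inflammatory cytokines, an inhibitor and a subunit of NF-kB signalling, the oncostatin M receptor and C/EBP factors. NFKBIZ, the NF-kB cofactor known to act at LCN2, was 13.999 and 11.9 TPM with DMSO at 48 h and 44.1 and 29.9 with 7F8. Its change of 1.43 did not pass the test (adjusted p = 0.147, limma). The list's median log2 fold change was 0.56, 0.72 and 0.70, and 0.64, 0.38 and 0.95 after median-of-ratios scaling.

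At 4 h with 7F8, 2 of the factors followed by name differed between the replicates. NFKBIZ was 12.2 and 6.44 TPM with DMSO and 14.2 and 54.4 with 7F8, and CEBPD was 41.5 and 32.3 with DMSO and 62.4 and 134 with 7F8. CEBPB was 163 and 169 with DMSO and 271 and 328 with 7F8. Replicate 2 of 7F8 was the higher library in all 3, as it was for SAA2, PI3 and C15orf48 at that hour. Replicate 2 of 7F8 was the lower library for SAA1, SLPI, LCN2, C3 and CFB. With DMSO, 5G6 and 6D7 at 4 h, replicate 2 was likewise the higher for PI3 and CEBPB. For C15orf48 this held with DMSO and 6D7. Replicate 1 was the higher with DMSO, 5G6 and 6D7 for NFKBIZ, CEBPD and SAA2. The changes of 1.55 for NFKBIZ and 1.30 for CEBPD did not pass the test (adjusted p of 0.918 and 0.608, limma with Benjamini-Hochberg adjustment).

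Of the receptors and partners of the 8 genes, 10 of 15 were tested. SCARB1, a lipoprotein receptor that also takes up serum amyloid A, was called higher with 5G6 (1.14, adjusted p = 0.0261) and 6D7 (1.24, adjusted p = 0.00879) by limma. NDUFA4L2, a relative of NDUFA4, and COX4I1, a subunit of complex IV, were called higher with 6D7 (1.46 and 0.57) but not after median-of-ratios scaling. SLC22A17, the LCN2 receptor, changed by 0.12, 0.43 and 0.07 and passed no test. With 7F8, 0 of the 10 were called. The list's median log2 fold change was 0.03, 0.41 and -0.30, and 0.12, 0.10 and -0.04 after median-of-ratios scaling.

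**Figure D5:**
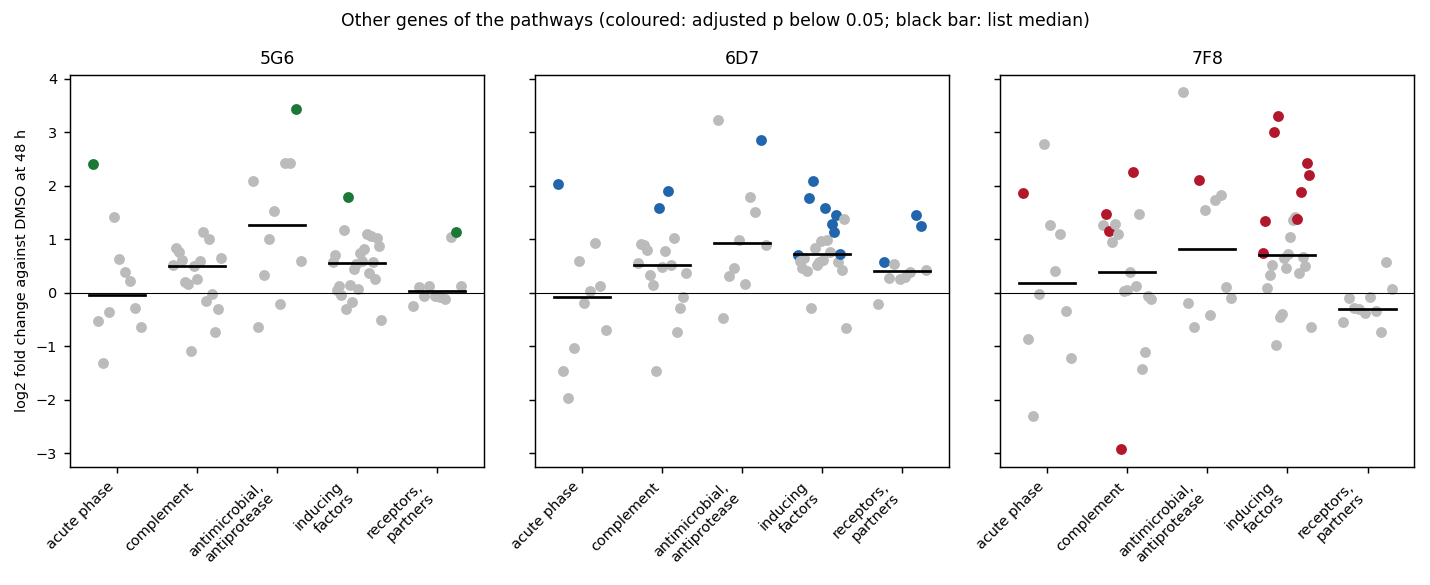
Log2 fold change against DMSO at 48 h of the 71 tested genes of the 5 other lists, 1 panel per compound, with coloured points for an adjusted p below 0.05 (limma) and a black bar for the list median. The inducing factors hold 8 coloured points with 6D7 and 8 with 7F8, and C5 at -2.92 is the 1 coloured point below 0.

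The genes whose log2(TPM + 1) after median-of-ratios scaling followed each member most closely over the 16 libraries were named from 11095 candidates. These correlations are a description over libraries that share treatment and hour. SAA1 was followed most closely by B2M (r = 0.965), C1S (0.956) and CTSS (0.953), and SAA2 by GRN (0.966), IL6 (0.965) and B2M (0.963). PI3 was followed by PRAF2 (0.974), GABPB1-IT1 (0.967) and SQOR (0.966), and SLPI by CFD (0.911), GUSB (0.902) and P4HTM (0.894). C3 was followed by ITGB3 (0.973), SORCS2 (0.966) and CA12 (0.966), and CFB by DRAXIN (0.964), AGRN (0.961) and PID1 (0.958). For C15orf48 the closest were FTH1 (0.963), FADS3 (0.956) and PLAUR (0.956). LCN2 was followed by HLA-C (0.985), PML (0.969) and HLA-B (0.968).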

How the data were processed

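PolyA RNA of 16 A549 libraries (8 groups of 2) was sequenced. The submitters' processing notes name STAR 2.6.1a, featureCounts 1.6.3, StringTie 2.0 and GRCh38, without their roles, and strandedness is not given in the sources used here. Per the file headers, the authors deposited TPM (scaled to 1 sum per library), FPKM (scaled by gene length and library) and coverage (mean read signal per gene, unscaled between libraries). Read counts were not used here.

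Rows of 1 gene name were summed. Among 26182 genes above 0, those reaching 1 TPM in 2 or more libraries (15285) were fitted as log2(TPM + 1) with limma 3.58.1 (R 4.3.3): 8 group means, 8 residual degrees of freedom, empirical Bayes with a mean-variance trend, two-sided, Benjamini-Hochberg adjustment within each of 16 comparisons, called at an adjusted p below 0.05. P-values measure the spread between these libraries. The fit was tested on simulated data. The 8 members are always named; from each list the called genes with the smallest p were named, with NFKBIZ, CEBPB, CEBPD and NDUFA4, and FGB, CFD, CCL20, SLC22A17 and the rest of the called genes of the inducing factors were added after their values were seen. For likeness, the 3 genes with the highest r were taken. The members and lists were chosen with earlier results of these data known. Alternatives were FPKM, a pseudocount of 0.1, no filter, no trend, median-of-ratios scaling, TPM without TRNC and TRNY, SAA1 and SAA2 summed, 1 time point alone, a replicate block and each library left out; coverage and the scaled block were added after seeing the data.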

Additional observations from a re-analysis of the deposited data

How the results depend on the processing

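The replicate numbers are not said to mark a shared culture or day, so they were not taken as pairs. Differences between replicates 1 and 2 nonetheless correlated between groups, at 0.0576 to 0.63 (median 0.328), all above 0. Replicate 1 was the higher in all 8 groups for 3.48% of tested genes and replicate 2 for 12.7%. What lies behind this shared part was not tested. With the replicate block, the members called at 48 h numbered 1 of 4 (5G6 against DMSO; main 0), 3 (6D7; main 0), 4 (7F8; main 2), 2 (5G6 against 7F8; main 0) and 2 (7F8 at 48 h minus 4 h; main 0), and with median-of-ratios scaling and the block 1, 2, 4, 2 and 2. Under the block the adjusted p of LCN2 against DMSO at 48 h was 0.00357, 0.00163 and 0.00118 for 5G6, 6D7 and 7F8 (limma). In that fit it was 0.0174 for SLPI with 7F8, and 0.0108 and 0.047 for C3 and CFB with 6D7 (limma). With 1 time point alone, 1 member was called for 7F8 against DMSO at 48 h. For 6D7 against 7F8 at 48 h, 0 of 4 were called (main 2) with FPKM, median-of-ratios scaling, TPM without TRNC and TRNY, 1 time point alone, or coverage; the cause was not tested.

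Leaving out single libraries gave 0 to 3 called members for 7F8 against DMSO at 48 h, 0 to 3 for 6D7 against 7F8 at 48 h, and 0 to 1 for 7F8 at 48 h minus 4 h. For 5G6 against 6D7 at 48 h, PI3 (-0.17) became 0.21 with FPKM, 0.23 without TRNC and TRNY, and 0.24 with median-of-ratios scaling, coverage or the scaled block, and LCN2 (-0.11) became 0.26, 0.29, and 0.30. With libraries left out, that comparison ran from -0.50 to 1.26 for SAA1, -0.31 to 1.09 for SAA2, -0.58 to 0.23 for PI3, -1.53 to 1.31 for LCN2, -0.53 to 0.75 for CFB and -1.43 to 0.14 for C15orf48; 5G6 against 7F8 ran from -1.20 to 0.18 for SLPI and -1.47 to 1.22 for LCN2, and 6D7 against 7F8 from -1.43 to 1.41 for LCN2.

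The other counts of called members (156 with all libraries, 70 with 1 left out) stayed within 1.5 times the main count, but that was 0 in 14 of 16 comparisons, which says nothing of stability. The SE of a change against DMSO was 0.37 for C3 and 1.29 for LCN2.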
